A study of Mus musculus with 13 samples.

Results

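The genes Dlx1 to Dlx6 of the mouse lie in 3 pairs, Dlx1 with Dlx2 on chromosome 2, Dlx3 with Dlx4 on chromosome 11 and Dlx5 with Dlx6 on chromosome 6. Open chromatin around them was compared between forelimb and forebrain, using the ATAC-seq regions whose strongest summit lay within 100 kb of one of the 6 gene bodies (mm10, GENCODE M21). These were 692 of 1357031 regions in 13 libraries, with 237 around Dlx1 and Dlx2, 234 around Dlx3 and Dlx4 and 221 around Dlx5 and Dlx6. ATAC-seq uses the transposase Tn5 to insert sequencing adapters where DNA is accessible, and the peak caller lists the regions in which insertions pile up.

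All embryos were of the B6CBAF1 background and were collected at E12.5. Wild-type (wt) embryos and embryos homozygous for allele 542 were sampled in forebrain (FB) and in the distal (DFL) and proximal (PFL) parts of the forelimb. Each of the 6 groups had 2 libraries, with 50000 cells in each library. In allele 542 a single copy of II1, a distal limb enhancer of the HoxD locus, had been placed with an HBB promoter and a LacZ reporter in the regulatory domain on the telomeric side of HoxD, on the same chromosome as Dlx1 and Dlx2 but beyond them. The reads of 542 libraries were aligned by the authors on a genome that holds this insertion, and the Dlx genes lie before the insertion or on other chromosomes, where positions do not differ. Cells came from pools of several embryos taken from different litters, so the p-values below measure the spread between such pools. A 13th library, an earlier wt DFL sample that the authors processed anew, entered no group. Ranges and counts of limb libraries below leave it out, and its values are given beside the results they bear on. Each library is a bulk sample, in which fewer cells with an open region and less opening per cell cannot be told apart.

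Dlx genes encode homeodomain transcription factors, the vertebrate relatives of Distal-less of the fly. The members of a pair are convergently transcribed and share regulatory elements, some of which lie between the 2 genes. In the forebrain Dlx1, Dlx2, Dlx5 and Dlx6 act in the ganglionic eminences, where GABAergic interneurons arise. In the limb Dlx5 and Dlx6 act in the apical ectodermal ridge and in skeletal precursors, and Dlx3 is best known from the epidermis, hair and placenta. Dlx4 is the least studied member.

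The libraries were first set against their tissue labels and their depth. Start regions of the forebrain markers Emx1, Emx2, Tubb3 and Neurog2 were all higher in forebrain by the rank test described below, and 4 of 8 listed markers had a start region. By fold, of the 3 that could be fitted, Emx2 was higher in forebrain (log2 0.38, limma, adjusted p = 0.046), Tubb3 was not called (0.21, limma, adjusted p = 0.124) and Neurog2 was lower (-0.45, limma, adjusted p = 0.004), while the limb mesenchyme marker Prrx1 was higher in forebrain (0.39, limma, adjusted p = 0.028). Those of Twist1 and Hand2, 2 of 4 measured limb mesenchyme markers, were higher in limb, as was that of Scx, a tendon gene and 1 of 2 measured proximal markers, and Hoxa13, Hoxd13 and Hoxd12 had a start region among the strongest of all 4 DFL libraries and of no FB library. Those of Hoxa13 and Hoxd13 were also among the strongest of 3 PFL libraries, and that of Hoxd12 of none. Of the markers of other cells, 2 of 6 limb ectoderm genes had a start region (Wnt7a higher in forebrain), 2 of 4 muscle genes (neither called) and 2 of 4 blood and endothelial genes (Tal1 higher in forebrain, Kdr in limb). Estimated depth was 37.5 to 54.5 M tags (M for mega) in limb and 51.4 to 70.7 M in forebrain libraries, where a tag is one end of a sequenced fragment. Of every 10000 regions in a library, 4.01 to 5.32 lay around the Dlx genes in limb and 5.64 to 6.28 in forebrain, so that the groups did not overlap. Depth moved in the same direction, and its part in the results below was not tested. The shares of a library's regions whose local background was at least 3 times the library background were 6.44% to 8.37% in limb, 8.77% to 9.99% in forebrain and 9.24% in the earlier wt DFL library.

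For comparisons the 50000 strongest regions of each of the 12 grouped libraries were joined where they overlapped, which gave 111905 joined regions. Of these 57 lay around the Dlx genes, with 22 around Dlx1 and Dlx2, 17 around Dlx3 and Dlx4 and 18 around Dlx5 and Dlx6. The sequences that follow are 300 bases of the forward strand (mm10), centred on the strongest summit of regions that carry the tissue differences or that were open in all tissues. Capitals mark matches on either strand to 4 short motifs, which are TAATTA, the core bound by many homeodomain proteins, CAGCTG, an E-box, CAATAAA, a sequence preferred by HOX13 proteins, and CTAGTGG, part of the CTCF site. The last motif was chosen after the sequences had been seen. The first window was in all 4 FB libraries and no limb library, and the next ones in all 8 limb libraries and no FB library.
10.5 kb upstream of Dlx1, chr2:71517481-71517780: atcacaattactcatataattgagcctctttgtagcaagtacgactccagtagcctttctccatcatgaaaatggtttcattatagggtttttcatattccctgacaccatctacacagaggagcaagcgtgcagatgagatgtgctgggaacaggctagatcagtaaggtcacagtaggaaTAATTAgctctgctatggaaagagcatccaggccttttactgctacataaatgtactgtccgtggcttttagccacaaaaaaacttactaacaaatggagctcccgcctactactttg
30.7 kb upstream of Dlx1, chr2:71497240-71497539: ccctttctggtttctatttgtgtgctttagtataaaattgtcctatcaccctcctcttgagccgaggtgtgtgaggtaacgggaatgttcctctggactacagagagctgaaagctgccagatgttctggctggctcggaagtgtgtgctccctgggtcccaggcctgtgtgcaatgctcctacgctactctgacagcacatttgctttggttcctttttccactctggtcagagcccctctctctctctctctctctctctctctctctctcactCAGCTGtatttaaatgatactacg
77.1 kb upstream of Dlx6, chr6:6786131-6786430: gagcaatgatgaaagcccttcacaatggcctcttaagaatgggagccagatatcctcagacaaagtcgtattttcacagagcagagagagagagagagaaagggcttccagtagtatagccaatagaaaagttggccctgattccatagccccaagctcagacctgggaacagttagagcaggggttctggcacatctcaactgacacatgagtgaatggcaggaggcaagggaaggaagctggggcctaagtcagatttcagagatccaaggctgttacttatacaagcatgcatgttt

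The next 3 windows were in all 12 libraries. The last one is among the 3 joined regions between Dlx5 and Dlx6 and was added after its values were seen. The place of all 3 in the forebrain lists depended on the measure used. The windows of the others, not shown, held no match to any of the motifs.
34.4 kb upstream of Dlx2, chr2:71581011-71581310: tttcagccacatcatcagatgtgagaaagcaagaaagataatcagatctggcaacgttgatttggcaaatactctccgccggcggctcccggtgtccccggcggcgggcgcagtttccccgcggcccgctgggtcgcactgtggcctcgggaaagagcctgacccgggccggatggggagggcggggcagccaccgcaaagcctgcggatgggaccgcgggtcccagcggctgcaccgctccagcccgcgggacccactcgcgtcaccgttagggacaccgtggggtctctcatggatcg
85.9 kb upstream of Dlx4, chr11:95232004-95232303: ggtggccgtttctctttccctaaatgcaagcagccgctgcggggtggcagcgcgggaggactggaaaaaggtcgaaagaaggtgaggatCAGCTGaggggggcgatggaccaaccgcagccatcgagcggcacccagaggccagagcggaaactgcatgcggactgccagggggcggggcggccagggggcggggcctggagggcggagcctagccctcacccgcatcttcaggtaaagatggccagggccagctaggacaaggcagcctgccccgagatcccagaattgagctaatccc
33.3 kb upstream of Dlx5, chr6:6915198-6915497: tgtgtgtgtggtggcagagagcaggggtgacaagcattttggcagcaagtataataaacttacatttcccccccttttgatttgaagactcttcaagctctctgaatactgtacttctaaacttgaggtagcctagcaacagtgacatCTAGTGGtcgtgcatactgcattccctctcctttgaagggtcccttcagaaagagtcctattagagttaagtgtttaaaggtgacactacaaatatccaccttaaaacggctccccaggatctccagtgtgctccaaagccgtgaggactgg
8.57 kb downstream of the Dlx6 start, chr6:6871753-6872052: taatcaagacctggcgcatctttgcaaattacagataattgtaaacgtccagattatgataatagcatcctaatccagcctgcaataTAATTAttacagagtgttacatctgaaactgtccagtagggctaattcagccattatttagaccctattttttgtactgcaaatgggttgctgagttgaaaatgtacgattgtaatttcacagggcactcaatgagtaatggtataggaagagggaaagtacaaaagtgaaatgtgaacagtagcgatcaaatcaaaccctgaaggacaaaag

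The window 10.5 kb upstream of Dlx1 held 1 TAATTA, as did the window shown between Dlx5 and Dlx6. The windows at the other joined regions between Dlx5 and Dlx6 held no TAATTA. The window 33.3 kb upstream of Dlx5 held 1 CTAGTGG. In windows of 300 bases, TAATTA occurred in 10 of the 57 Dlx regions (17.5%) and in 14.1% of all joined regions. Across the genome its share was 32.3% in regions of all 4 FB and no limb library, 9.64% in regions of all 8 limb and no FB library and 3.87% in regions of all 12 libraries. CAGCTG was in 13 Dlx regions (22.8%) against 25.5% of all regions. CAATAAA was in 1 (1.75%) against 7.16%, and CTAGTGG in 5 (8.77%) against 4.48%. No motif contains another, and a match is a stretch of sequence and not evidence of binding.

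To ask which tissue each region belonged to, its presence among the 50000 strongest of each library was counted. Of the 57 Dlx regions 11 were in all 12 libraries (16.9% of all joined regions were), 3 around Dlx1 and Dlx2, 3 around Dlx3 and Dlx4 and 5 around Dlx5 and Dlx6. These 11 include the regions over the starts of the neighbouring genes Metap1d, Pdk2 and Sdhaf3. Their mean folds, at 18.2, 17.9 and 20.7, were the highest of the 11. All 4 FB libraries and no limb library held 3 Dlx regions, each around Dlx1 and Dlx2, and 8.74% of all joined regions had this pattern. All 8 limb libraries and no FB library held 2, 1 near Dlx1 and 1 near Dlx6, against 4.77% of all. In all 4 DFL and no PFL library there were 2, 1 near Dlx2 and 1 near Dlx6, against 2.51% of all, and in all 4 PFL and no DFL library there was none, against 2.05% of all. No Dlx region was in all 6 libraries of one genotype and none of the other, a pattern of 0.0259% of all regions. A single library held 14 of the 57 (21.1% of all), and 40 had mixed patterns.

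**Figure D1:**
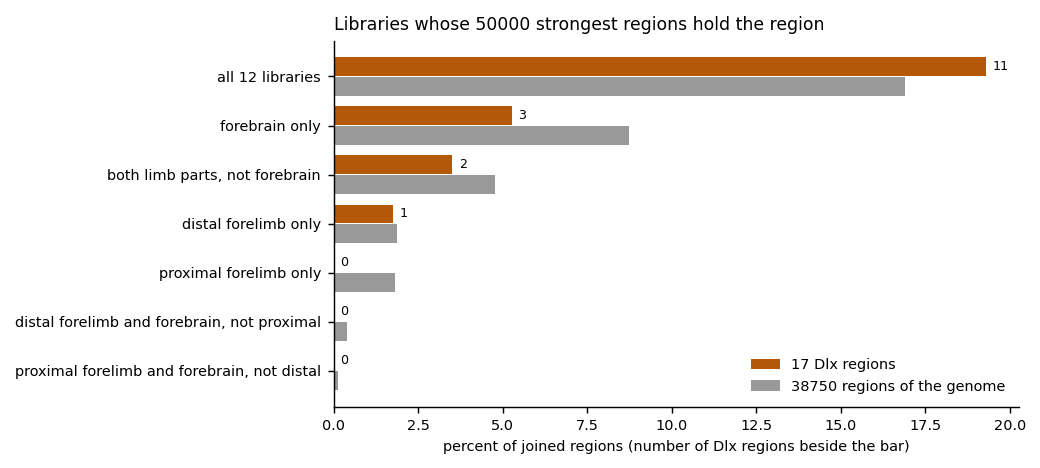
Percent of the 57 joined Dlx regions and of all 111905 joined regions with each pattern of presence among the 50000 strongest, with the number of Dlx regions beside its bar. Mixed patterns are not drawn, and the legend counts only the regions of the drawn patterns. The Dlx bar is longer for regions in all 12 libraries (11 regions) and shorter for forebrain-only (3) and limb-only (2) regions.

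A graded form of the same comparison used the rank score, which is 100 for the strongest region of a library, falls to 0 at the end of its 50000 and is 0 for a region not among them. Mean scores were compared by an exact two-sided permutation test over the 495 assignments of 8 limb and 4 FB libraries, with Benjamini-Hochberg adjustment over all joined regions. Of the Dlx regions 6 were higher in forebrain, 5 around Dlx1 and Dlx2 and 1 around Dlx3 and Dlx4, while 14.2% of all regions were. In limb 3 were higher, 1 around each pair, while 8.38% of all regions were. A region of all 4 FB and no limb library, or of all 8 limb and no FB library, has the smallest p by construction, and these were 3 of the 6 and 2 of the 3. Forebrain-higher regions were therefore found around Dlx1 and Dlx2 in 5 of 22, around Dlx3 and Dlx4 in 1 of 17 and around Dlx5 and Dlx6 in 0 of 18. With lists shortened to the 20000 strongest, 16 joined Dlx regions were left, and 1 was called, in limb. By the rank score over 50000 regions 13 Dlx regions had an unadjusted p below 0.05 (33.2% of all regions did).

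**Figure D2:**
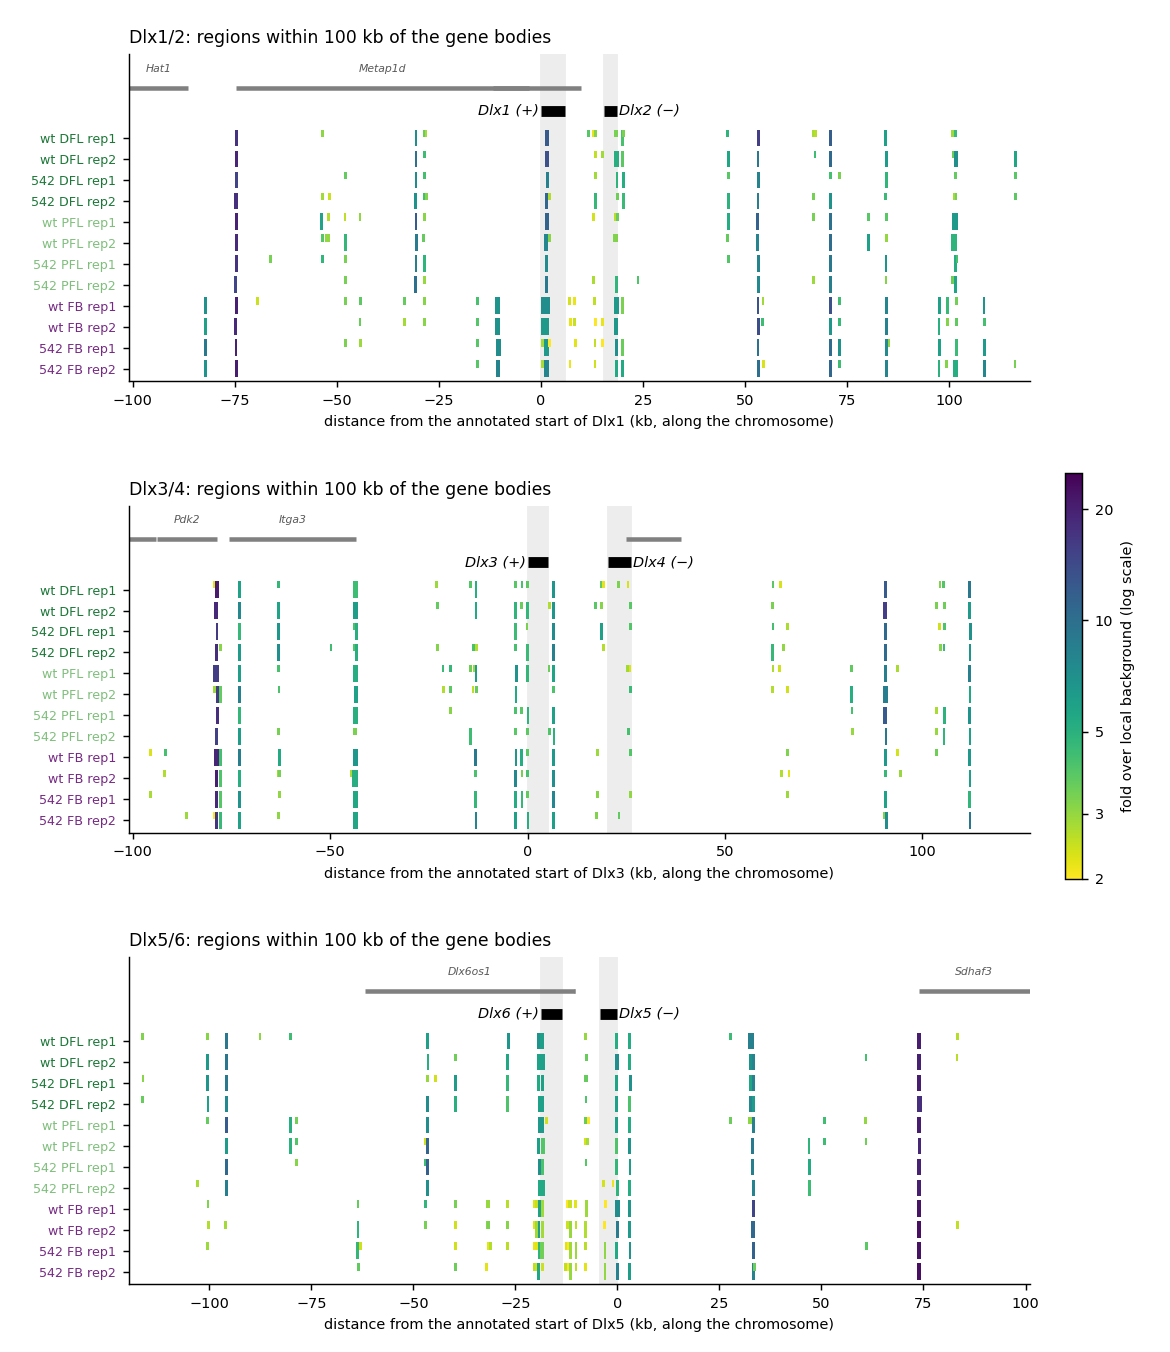
Deposited regions along each gene pair with 100 kb on either side, by distance in kb, with 1 row per library, gene bodies in black on grey bands and colour for the fold on a log scale. Tall marks are regions among the 50000 strongest, and short marks are weaker ones. The forebrain rows carry 3 strong regions around Dlx1 and Dlx2 that no limb row has, and 4 to 5 weak regions between Dlx5 and Dlx6.

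Of the 9 regions called by rank score, 6 lay around Dlx1 and Dlx2. A region 10.5 kb upstream of Dlx1 (chr2:71516790-71518251, summit in an intron of Dlx1as and Metap1d) had a fold of 6.74 and 6.87 in wt FB and 7.34 and 8.06 in 542 FB, and it was in no limb list at any rank. The fold is the number of tags at the summit over the background expected there, each increased by 1. Mean fold in forebrain was 7.25 ± 0.593 (SD, n = 4), and the 4 values lay close together. Its rank score was higher in forebrain by 55.6, which is given as a description, since the score is 0 in limb by the pattern that chose the region.

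Another forebrain-only region lay in intergenic sequence 82.1 kb upstream of Dlx1 (chr2:71445498-71446194), with a fold of 6.89 and 5.96 in wt FB and 8.99 and 6.77 in 542 FB. The last one lay in intergenic sequence 78.7 kb upstream of Dlx2 (chr2:71625266-71625860), with 5.94 and 5.01 in wt FB and 5.91 and 4.99 in 542 FB. Neither was in a limb list at any rank, and the earlier wt DFL library lacked both. Their rank scores were higher in forebrain by 34.5 and 28.7, again with 0 in all limb libraries. An intergenic region 65.9 kb upstream of Dlx2 (chr2:71612115-71613169), named after its values were seen, was also higher in forebrain (difference 32.7, exact permutation test, adjusted p = 0.020) with a fold of 7.52 to 8.23 there and 3.02 to 6.73 in limb. The earlier wt DFL library had 12.3, above every forebrain value, and with it among the DFL libraries the difference was 27.2 and not called (exact permutation test, adjusted p = 0.121).

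The region over the start of Dlx2 (chr2:71545933-71547120), a gene of early ganglionic eminence progenitors, had a fold of 6.40 and 6.48 in wt FB and of 7.12 and 5.46 in 542 FB. In DFL it was 3.37 and 5.11 in wt and 4.85 and 3.48 in 542. In PFL it was 3.61 and 3.21 in wt and 4.77 in the second 542 library, while the first 542 library did not list it. In the 12 grouped libraries every forebrain value was thus above every limb value, while the earlier wt DFL library, at 6.43, lay among the forebrain values. The means were 6.37 ± 0.681 (SD, n = 4) in forebrain and 4.06 ± 0.811 (SD, n = 7) in limb. The rank score was 56.8 to 70.2 in forebrain and 0 to 41.9 in limb, a difference of 51.4 (exact permutation test, adjusted p = 0.011), and 47.9 with the earlier library among the DFL libraries (exact permutation test, adjusted p = 0.008). With all deposited regions ranked, the difference was 35.5 and no longer passed (exact permutation test, adjusted p = 0.066), and with the 20000 strongest it was 13.2 (exact permutation test, adjusted p = 0.067). Tags per 10 M estimated tags were 20.6 to 25.1 in forebrain and 6.27 to 13.6 in limb, and the local background was 3.17 to 3.48 times that of the library in forebrain and 1.37 to 2.32 times in limb, both without overlap.

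The opposite pattern was seen at an intron of Metap1d, the gene of a mitochondrial methionine aminopeptidase, 30.7 kb upstream of Dlx1 (chr2:71497181-71497775). Its fold was 7.31 and 9.81 in wt DFL, 7.37 and 6.95 in 542 DFL, 12.1 and 8.86 in wt PFL and 8.45 and 9.93 in 542 PFL. No forebrain list held it at any rank, and the earlier wt DFL library had 14.0. Mean fold in limb was 8.84 ± 1.72 (SD, n = 8), and the rank score was lower in forebrain by 58.3, where it is 0 by the pattern. It was thus a limb region between a pair of forebrain-only ones, those 82.1 kb and 10.5 kb upstream of Dlx1.

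Joined regions over gene starts were listed in most libraries. The region over the start of Dlx1 (chr2:71528079-71530302), which with Dlx2 specifies interneurons, was in all 12 lists. Its strongest summit lay 1.60 kb downstream of the start, in an exon of Dlx1. The joined region reached the start only through the first wt FB library. The regions that gave the limb values began 0.80 to 1.17 kb downstream of the start. Values called those of the Dlx1 start are of this joined region. Its fold was 12.52 and 13.5 in wt DFL, 8.33 and 10.9 in 542 DFL, 11.3 and 7.86 in wt PFL, 7.43 and 8.92 in 542 PFL, 7.24 and 6.43 in wt FB and 6.45 and 7.91 in 542 FB. The means were 10.1 ± 2.27 (SD, n = 8) in limb and 7.01 ± 0.71 (SD, n = 4) in forebrain, with some overlap. Among the 18926 regions in all 12 lists, log2 fold was compared with limma after quantile normalization. There the Dlx1 start was lower in forebrain by 0.66 (standard error 0.12, limma, adjusted p = 0.001), the one of 11 Dlx regions that was limb-higher, against 16% of all regions. None of the 11 was forebrain-higher, against 15.1% of all, and 3 had an unadjusted p below 0.05 (41.9% of all did).

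The fold divides the tags by a local background, so tags were also compared on their own. Whole numbers of tags, used above for Dlx2, were recovered from the deposited values and expressed per 10 M estimated tags. At the start of Dlx1 the DFL values were 27.0, 28.2, 13.3 and 21.4. Those in PFL were 20.9, 14.1, 12.4 and 17.9, and those in FB were 32.0, 25.5, 25.9 and 37.1. With tags the same region was higher in forebrain, by 0.48 on the log2 scale (standard error 0.14, limma, adjusted p = 0.003), so that the direction turned with the measure. The earlier wt DFL library had 36.0 tags per 10 M, within the forebrain range, and with it among the DFL libraries the difference was 0.49 (standard error 0.15, limma, adjusted p = 0.010). The local background, relative to that of the whole library, was 1.29 to 1.86 in limb and 3.56 to 4.23 in forebrain with no overlap (difference 2.28, exact permutation test, adjusted p = 0.00877), and 2.43 in the earlier wt DFL library.

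**Figure D3:**
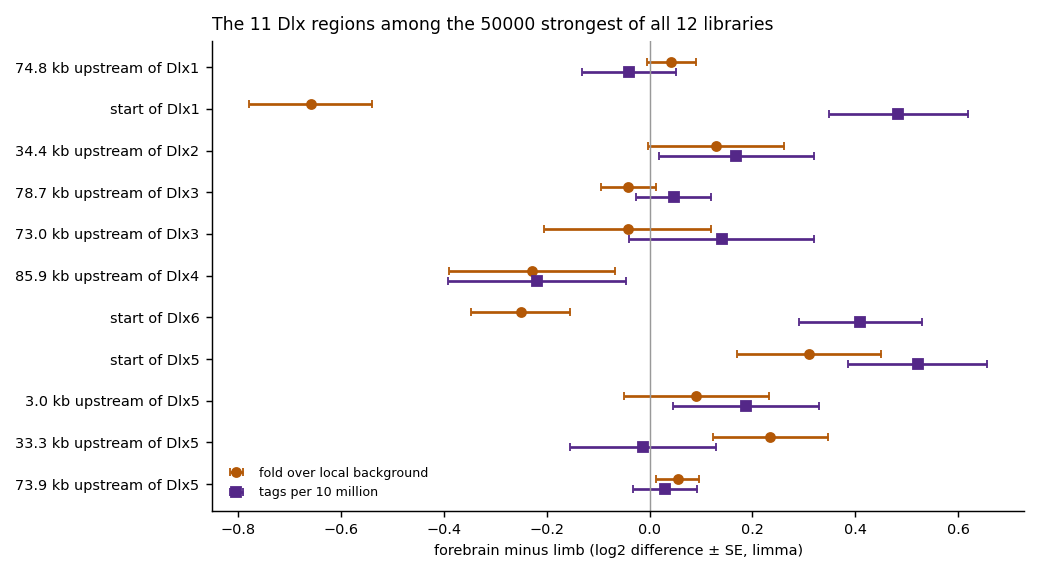
Forebrain minus limb on the log2 scale for the 11 Dlx regions among the strongest of all 12 libraries, by fold (circles) and by tags per 10 M (squares), each with its standard error from limma. The joined regions of the Dlx1 and Dlx6 starts lie below 0 by fold, at -0.66 and -0.25, and above 0 by tags, at 0.48 and 0.41. In that of Dlx6 the values are of different regions in different libraries.

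Dlx5 and Dlx6 act together in limb and forebrain. The joined region over the start of Dlx6 (chr6:6862535-6864301) was in all 12 lists, with a fold of 6.86 and 5.98 in wt DFL, 5.92 and 6.02 in 542 DFL, 6.40 and 6.09 in wt PFL, 7.08 and 5.43 in 542 PFL, 5.83 and 6.32 in wt FB and 4.87 and 5.61 in 542 FB. It joins an upstream and a downstream region, which most libraries listed apart, and each value is that of the stronger one. The forebrain values and 6.86, 6.09 and 7.08 in limb are of the upstream one, which ended before the start. Those of 5.98 and 5.92 are of the downstream one, and the remaining ones are of a single region over both. The means were 6.22 ± 0.535 (SD, n = 8) in limb and 5.66 ± 0.603 (SD, n = 4) in forebrain, and the groups overlapped. The fold was not called between them (log2 difference -0.25, standard error 0.10, limma, adjusted p = 0.064). Tags per 10 M were 13.6 to 21.5 in limb and 22.5 to 30.8 in forebrain, and were higher in forebrain by 0.41 on the log2 scale (standard error 0.12, limma, adjusted p = 0.004). The earlier wt DFL library had 40.5 tags per 10 M, above every forebrain library, and a fold of 9.45. With it among the DFL libraries the difference by tags was 0.37 (standard error 0.13, limma, adjusted p = 0.026). The local background was 1.92 to 3.05 in limb and 4.16 to 4.41 in forebrain (exact permutation test, adjusted p = 0.00877), and 3.904 in the earlier wt DFL library.

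At the start of Dlx5 (chr6:6881385-6882651) the fold was 5.25 and 7.21 in wt DFL, 5.74 and 5.92 in 542 DFL, 5.95 and 4.03 in wt PFL, 4.74 and 4.84 in 542 PFL, 7.37 and 8.74 in wt FB and 5.46 and 8.28 in 542 FB. The forebrain mean of 7.46 ± 1.45 (SD, n = 4) was above the limb mean of 5.46 ± 0.971 (SD, n = 8), but the difference was not called (log2 0.31, standard error 0.14, limma, adjusted p = 0.110). By tags it was higher in forebrain (log2 0.52, standard error 0.14, limma, adjusted p = 0.001). By tags the forebrain-higher regions were thus 3 of 11 Dlx regions, the starts of Dlx1, Dlx5 and Dlx6, against 25.5% of all regions, and 0 were limb-higher, against 23.7% of all.

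The median difference between forebrain and limb over the 11 regions was 0.04 by fold and 0.14 by tags, against -0.0007 and 0.02 over all 18926. The local background was called higher in forebrain at 3 of the 11, the Dlx1 and Dlx6 starts and an intron of Itga3 (an integrin gene) 73.0 kb upstream of Dlx3, and 27% of all regions were. It was called higher in limb at none, against 11.9% of all. The median difference of this ratio was 0.297 over the 11 and 0.079 over all regions.

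**Figure D4:**
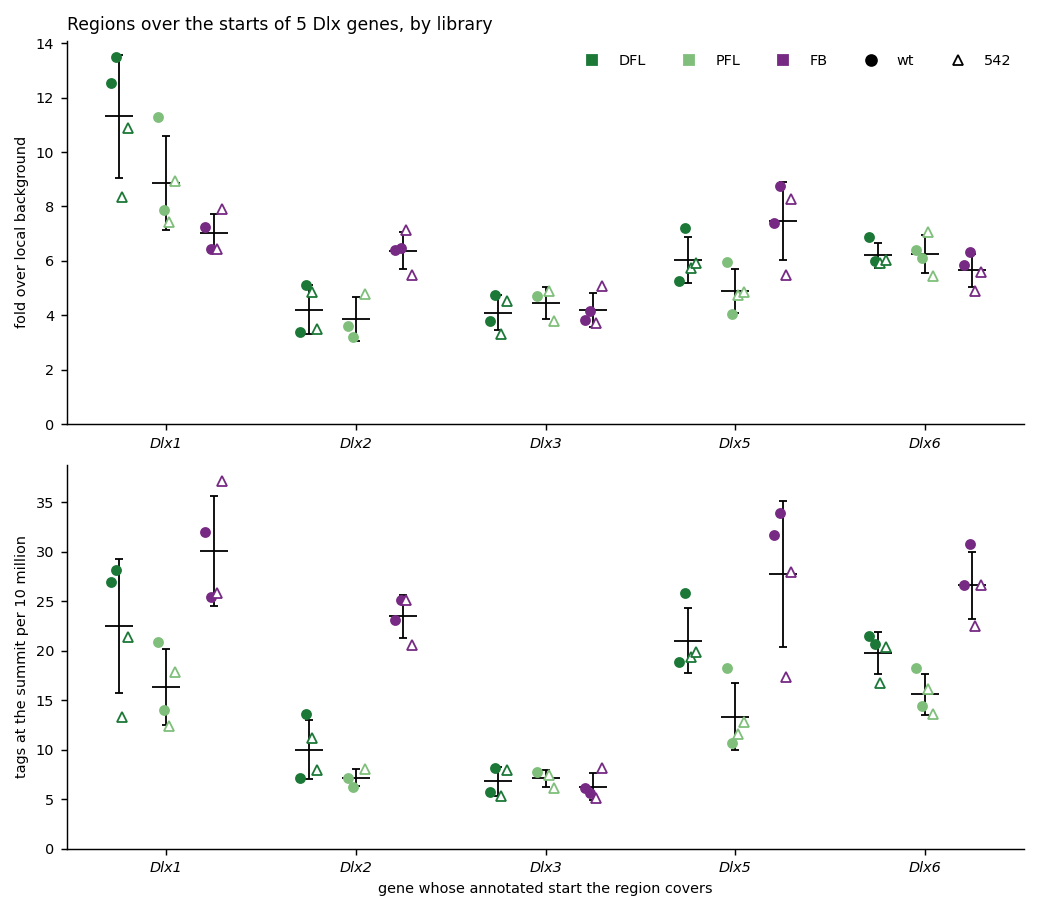
Fold (top) and tags per 10 M (bottom) at the regions over the starts of Dlx1, Dlx2, Dlx3, Dlx5 and Dlx6 in each library, with filled circles for wt and open triangles for 542. Bars give the mean and SD of each tissue. The Dlx1 region has its summit 1.60 kb downstream of the start, and the forebrain values at Dlx6 are of a region that ended before the Dlx6 start. The 4 forebrain folds lie above the limb folds at Dlx2 and overlap them at Dlx3, Dlx5 and Dlx6, and the forebrain tags of these 12 libraries lie above the limb tags at Dlx2 and Dlx6, where the earlier wt DFL library, not plotted, had 17.7 and 40.5.

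Between Dlx5 and Dlx6, where enhancers of both genes are known, forebrain and limb differed in how much sequence the lists covered. Regions of any rank covered 25.1% ± 1.27 (SD, n = 4) of the interval between the gene bodies in forebrain, with 23.9% to 26.5% and 4 to 5 regions per library. In limb they covered 6.33% ± 3.21 (SD, n = 8), with 0% to 10.1% and 0 to 2 regions. The groups did not overlap, and the earlier wt DFL library had 8.96%. How often other intervals of the genome separate the tissues in this way was not tested. Between Dlx1 and Dlx2 the coverage was 10.5% ± 3.75 (SD, n = 4) in forebrain and 4.67% ± 4.50 (SD, n = 8) in limb, and between Dlx3 and Dlx4 it was 5.64% ± 2.19 (SD, n = 4) and 5.11% ± 2.17 (SD, n = 8), so that both of those pairs overlapped. The local background of the regions between Dlx5 and Dlx6, as the median of a library, was 3.82 to 4.11 times the library background in forebrain and 1.27 to 1.78 times in the limb libraries that had such a region. In the earlier wt DFL library it was 1.85 times.

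**Figure D5:**
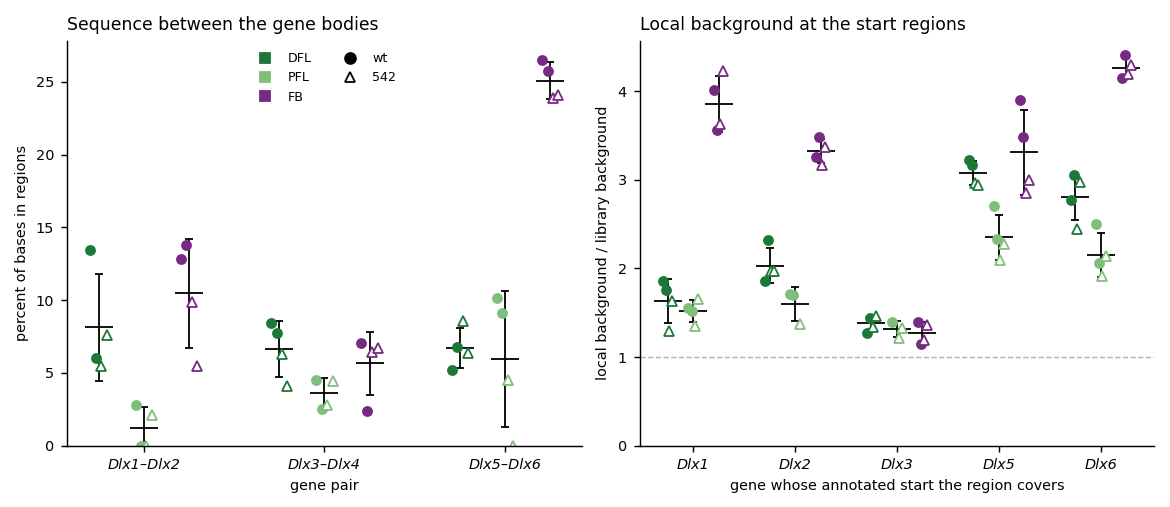
Percent of the bases between the 2 gene bodies of each pair that deposited regions covered (left), and local over library background at the start regions (right), per library with the mean and SD of each tissue. The dashed line marks the library background. Between Dlx5 and Dlx6 the 4 forebrain libraries sit at 23.9% to 26.5% and the 8 limb libraries at 0% to 10.1%. At the joined region of the Dlx1 start the forebrain background is 3.56 to 4.23 against 1.29 to 1.86 in limb.

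Single regions there were weak by fold. A region in an intron of Dlx6os1, the long non-coding RNA also called Evf2 (chr6:6870410-6870867), had a fold of 2.47 and 2.96 in wt FB and 2.86 and 2.99 in 542 FB, and a region over a start of Dlx6os1 (chr6:6871600-6872275) had 2.24 and 2.58, and 2.89 and 2.58. No limb list held either at any rank. Their tags per 10 M in forebrain were 10.9, 13.3, 11.9 and 12.8 in the first and 10.2, 11.7, 12.1 and 11.3 in the second.

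A region 7.85 kb downstream of the Dlx5 start (chr6:6873958-6874764) was listed in both tissues, with a fold of 2.81 to 4.01 in 7 limb libraries and 2.24 to 2.92 in forebrain. Its tags per 10 M were 4.94 to 7.27 in limb and 10.5 to 13.9 in forebrain, so that the tissues were apart by tags, with forebrain above, and overlapped by fold, with means of 3.51 ± 0.446 (SD, n = 7) in limb and 2.62 ± 0.282 (SD, n = 4) in forebrain. The earlier wt DFL library had 9.49 tags per 10 M, between these limb and forebrain ranges, and a fold of 4.57. By rank score none of these 3 was called, with adjusted p from 0.065 to 0.530 (exact permutation tests). With all deposited regions ranked, the regions in the Dlx6os1 intron and over the Dlx6os1 start were higher in forebrain, by 47.2 and 39.9 (exact permutation tests, adjusted p = 0.014 each). The region listed in both tissues was not called there (9.49, exact permutation test, adjusted p = 0.571). With regions ranked by tags all 3 were higher in forebrain, by 49.0, 44.7 and 45.3 (exact permutation tests, adjusted p = 0.010 each). In both rankings the limb score of the Dlx6os1 intron and start regions is 0 by their pattern. Their p is thus the smallest by construction, and the differences are a description.

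Ranked by tags, 13 of 60 joined Dlx regions were higher in forebrain (15.2% of all regions) and 3 in limb (9.33% of all). By pair, the 13 were 5 around Dlx1 and Dlx2, 1 around Dlx3 and Dlx4 and 7 around Dlx5 and Dlx6, where the ranking by significance and fold had given 0. The ranking by tags was chosen after the data had been seen. The Dlx6 start was among these 7 (difference 7.53, exact permutation test, adjusted p = 0.049).

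The 1 limb-higher region around Dlx5 and Dlx6 was an intergenic region 77.1 kb upstream of Dlx6 (chr6:6785868-6786773). It had a fold of 9.17 and 9.31 in wt DFL, 9.08 and 7.58 in 542 DFL, 12.1 and 6.27 in wt PFL and 10.7 and 8.60 in 542 PFL. Forebrain held it in the second wt library alone, at 2.84 and below the 50000 strongest. Mean fold in limb was 9.09 ± 1.78 (SD, n = 8), and the rank score was lower in forebrain by 65.1, where it is 0 by the pattern.

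Around Dlx3 and Dlx4, 2 of 17 joined regions were called, both far from the genes. The region over the start of Dlx3 (chr11:95119883-95120557), which acts in epidermal differentiation, had a fold of 3.79 and 4.76 in wt DFL, 3.32 and 4.52 in 542 DFL, 4.70 in the first wt PFL library, 4.90 and 3.80 in 542 PFL, 3.81 and 4.16 in wt FB and 3.70 and 5.07 in 542 FB. The second wt PFL library did not list it. The tissues overlapped widely, with means of 4.26 ± 0.609 (SD, n = 7) in limb and 4.18 ± 0.623 (SD, n = 4) in forebrain, and the rank score was not called (difference -1.85, exact permutation test, adjusted p = 0.924). No joined region lay over the start of Dlx4, but regions below the strongest did in some libraries of each tissue. Their fold was 3.85 in the second wt DFL, 3.96 in the first 542 DFL and 4.52 in the second wt PFL library. In forebrain it was 3.97 in the first wt and 3.04 in the first 542 library. The other grouped libraries listed no region over this start.

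Between Dlx3 and Dlx4, a region 6.59 kb downstream of the Dlx3 start (chr11:95126305-95127044) was listed by all 12 libraries, with a fold of 6.60 to 8.38 in DFL, 4.07 to 5.94 in PFL and 6.06 to 7.85 in FB. A region nearer to Dlx4 (chr11:95138670-95139101) was listed in 3 DFL libraries, at 3.15 to 5.90, in the earlier wt DFL library, at 3.75, and in no PFL or FB library. Further away, an intergenic region 64.6 kb upstream of Dlx4 (chr11:95210231-95211323) was higher in limb, with a fold of 8.45 to 15.8 there and 4.62 to 7.23 in forebrain (rank difference -51.9, exact permutation test, adjusted p = 0.011). One 77.8 kb upstream of Dlx3 (chr11:95042228-95042503) was higher in forebrain, with 3.89 to 4.54 in all 4 FB libraries and 3.13 and 3.66 in 2 limb libraries (rank difference 36.8, exact permutation test, adjusted p = 0.011). These last 2 regions were named after their values were seen.

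Distal and proximal forelimb were then compared, 4 libraries against 4. By rank score no region of the genome passed the adjusted threshold, since the smallest p of the 70 assignments is 0.0286 and the lowest adjusted p of a Dlx region was 0.255 (exact permutation test). Unadjusted, 3 Dlx regions had a p below 0.05 (11.2% of all). A region of all 4 DFL and no PFL library has the smallest p by construction. This holds for the regions upstream of Dlx6 and of Dlx2 given next. A region 8.16 kb upstream of Dlx6 in an exon of Gm44094 (chr6:6854881-6855739) had a fold of 6.66 and 5.57 in wt DFL and 4.67 and 4.03 in 542 DFL and was in no PFL list. In forebrain it was listed below the strongest in 3 libraries, at 2.60 to 3.18. A region 1.29 kb upstream of Dlx2 (chr2:71547878-71548553) had 4.18, 3.77, 5.25 and 4.52 in DFL, none in PFL and 3.28, 3.56 and 5.44 in 3 FB libraries. The other one was the region 6.59 kb downstream of the Dlx3 start given above, whose DFL and PFL folds did not overlap.

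By fold no Dlx region of the 11 differed between DFL and PFL, against 3.22% of all regions, with 1 at an unadjusted p below 0.05 and a lowest adjusted p of 0.227 (limma). By tags 1 did, the start of Dlx5, against 11.9% of all. Its tags per 10 M were 18.9, 25.9, 19.4 and 19.9 in DFL and 18.2, 10.6, 11.6 and 12.8 in PFL, and every DFL value was above every PFL value (log2 0.65, standard error 0.16, limma, adjusted p = 0.003). Its local background was 2.95 to 3.22 in DFL and 2.099 to 2.70 in PFL. The regions 3.03 kb and 33.3 kb upstream of Dlx5 were likewise apart in local background, at 2.47 to 2.71 against 1.71 to 2.09 and at 1.19 to 1.76 against 1.00. Each of these 3 had the smallest p the design allows, 0.0286, and none passed the adjustment (exact permutation tests, adjusted p = 0.300), as 9.53% of all regions had a p below 0.05.

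Lastly, 542 and wt libraries were compared within tissues. No Dlx region was called by rank score (labels permuted within tissues, lowest adjusted p = 0.896, exact permutation test), and 1 had an unadjusted p below 0.05 (3.29% of all). By fold none of the 11 was called, against 0.571% of all, with 1 at an unadjusted p below 0.05 (limma, 13.4% of all), and by tags none was, against 5.02% of all. The lowest adjusted p by fold was at the intergenic region 34.4 kb upstream of Dlx2 (chr2:71580676-71581546), on the chromosome of the insertion, with 15.7, 9.10, 11.3, 7.99, 13.2 and 13.9 in wt and 8.11, 8.69, 8.12, 7.59, 9.62 and 10.2 in 542 libraries, given in the order DFL, PFL and FB. The means were 11.9 ± 2.96 (SD, n = 6) and 8.71 ± 0.987 (SD, n = 6), and the difference was not called (log2 -0.35, standard error 0.12, limma, adjusted p = 0.267). Depth was 44.0 to 70.7 M tags in wt and 37.5 to 64.5 M in 542.

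Start regions of other genes of the same tissues were set beside the Dlx genes. Of 16 genes of forebrain GABAergic neurons 10 had a start region, and 2 of them were higher in forebrain by rank score (Lhx6, a factor of migrating interneurons, and Zeb2) and 1 in limb (Gad2, which makes GABA, difference -29.1). Their median difference was 11.6, against -0.92 over all regions. Of 16 genes of the limb ridge and skeleton, Bmp2 and Bmp7 were left out in the same way, and 8 had a start region. Of these, 1 was higher in forebrain (Wnt7a, a signal of the dorsal limb ectoderm, difference 34.2, exact permutation test, adjusted p = 0.045) and none in limb, with a median of -1.99.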

How the data were processed

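ATAC-seq was done by the authors on mouse forelimb and forebrain cells. The authors trimmed reads with Cutadapt, aligned them with bowtie2 on mm10 or on the mutant genome, filtered by mapping quality, removed duplicates with Picard, made tags with bedtools and called peaks with MACS2 per library with no control. The deposited fold is a ratio of tags to local background within a library, each plus 1. The p-value and q-value were deposited as −log10 and come from the peak caller, and the deposited score, a whole-number form of the q-value, was not used. None of these values was normalized between libraries.

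The members and gene lists were chosen with earlier results of these data known. The strongest summit stood for each region, and regions were ranked by −log10 q and then fold. Chromosome 2 from 75 Mb was left out of joined regions, because its coordinates differ between the genomes. Tags at a summit were recovered from fold and p-value as whole numbers, within a tolerance of 0.005, for 99.999% to 100% of summits, and depth was estimated from the most frequent background, the tag extension of 200 bp and a genome size of 1870000000. These totals are estimates. Groups were compared with limma 3.58.1 (R 4.3.3, eBayes with trend, 1 mean per group) and with exact two-sided permutation tests (Python 3.11.15, numpy 2.4.6, pandas 2.3.3, scipy 1.17.1), with Benjamini-Hochberg adjustment over all regions and a threshold of 0.05. Both were tested on simulated data. Tests of tags and of local background were chosen after the data had been seen. Regions were named by a rule, which takes those over Dlx starts, between the genes of a pair, up to 3 per presence pattern and pair, and up to 2 per contrast and pair with the lowest adjusted p. Alternatives were other numbers of regions, ways of joining, normalizations, thresholds, left-out replicates, the earlier wt DFL library included and a replicate block. Sequences were read from mm10 with pysam 0.24.0, and figures were drawn with matplotlib 3.10.9.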

Additional observations from a re-analysis of the deposited data

Results flagged for a closer look

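In 5 of 54 sets of 4 libraries of one tissue, both genotypes together, 1 library lay far from the other 3 in fold, and chance gives about 1 in 20 such sets. At the limb-only region 30.7 kb upstream of Dlx1 the second wt DFL library had 9.81, against 6.95 to 7.37 in the other DFL libraries. At the region 34.4 kb upstream of Dlx2 the first wt DFL library had 15.7, against 8.11 to 9.10, and the first wt PFL library 11.3, against 7.59 to 8.12. At the limb-only region 77.1 kb upstream of Dlx6 the second 542 DFL library had 7.58, against 9.08 to 9.31. At the joined region of the Dlx6 start the first wt DFL library had 6.86, against 5.92 to 6.02. There 6.86 is of the upstream region, 5.98 and 5.92 are of the downstream one, and 6.02 is of a region over both.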

How the results depend on the processing

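Of the 9 Dlx regions that differed between forebrain and limb by rank score, the count became 19 with all deposited regions, 1 with the 20000 strongest and 16 with regions ranked by tags. By fold the count of 1 became 2 with median centring, 5 with no normalization, 4 with all deposited regions, 0 with the 20000 strongest, 2 with a −log10 q of at least 10, 3 with tags and 17 with a fold of 1 where a library had no region. Under that last setting 7 differed between DFL and PFL and 5 between 542 and wt, where the count had been 0, and with tags 1 differed between DFL and PFL. Local background differed at 3 regions, at 6 with all deposited regions and at 0 with the 20000 strongest. The cause of these changes was not tested, except that the 20000 strongest leave fewer regions. The joined regions of the Dlx1 and Dlx6 starts reversed with tags, to 0.48 and 0.41 on the log2 scale, and to 0.49 and 0.37 with the earlier wt DFL library included as well. At Dlx6 the values were of different regions in different libraries. With that library included 8 regions differed by rank score, 3 by tags (all higher in forebrain) and 3 in local background between forebrain and limb, and 1 by tags between DFL and PFL.

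Without replicate 1 or 2 the counts for forebrain against limb were 0 to 0 by rank score and 0 to 0 for local background, as 15 assignments give no p below 0.0667, and 1 to 2 by fold. Replicate numbers did not pair the samples (correlations of deviations from -0.0478 to 0.0155). With a replicate block 9 regions differed by rank score, 1 by fold and 4 in local background between forebrain and limb.

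Depth is an estimate, and a region absent from a list can be open below the caller's threshold.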
